A study of Mus musculus with 2 samples.

Results

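The genes for 10 transcription regulators of T-cell fate, Tcf7, Lef1, Tox, Tox2, Id2, Id3, Bach2, Eomes, Tbx21 and Zeb2, were followed through the lymphocytes of inflamed pancreatic islets. They were picked by gene symbol from the 32285 genes of the deposited count matrices, and all 10 of 10 symbols were found, each once. The study profiled immune cells (CD45+ CD31-) that were sorted live from hand-picked islets of female NOD mice, an inbred strain that develops autoimmune diabetes. One 10x Genomics 3′ library came from WT NOD mice and 1 from NOD.Cxcl16-/- mice, labelled as knockouts of the chemokine gene Cxcl16, both at 12 weeks of age, and how many mice were pooled is not given in the sources used here. With 1 library per genotype, and since cells of a library are not replicates, no test between the genotypes was possible and no p-value is given. Every interval below is an exact 95% interval that covers counting error only.

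Tcf7 encodes TCF1, which with its relative LEF1 binds DNA through an HMG box and keeps naive and memory T cells, and stem-like cells of chronic responses, in a self-renewing state. BACH2 represses effector genes. TOX and TOX2 are HMG-box proteins tied to persistent antigen stimulation, and ID2 and ID3 inhibit the DNA binding of E proteins by capturing them. EOMES and T-bet (Tbx21) are T-box factors of cytotoxic and type 1 programmes. ZEB2 is a zinc-finger repressor that acts with T-bet in terminal effector cells.

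Tcf7, Lef1 and Bach2 were the members that lay lower together in dividing CD8 cells of both libraries, and their promoters are shown for that reason. The sequences are RefSeq's on build GRCm38.p6, 250 bases before to 50 bases after the most upstream start in that table, 5′ to 3′ on the gene's strand. They lie at chr11:52282965-52283264 on the minus strand for Tcf7, chr3:131110047-131110346 on the plus strand for Lef1 and chr4:32417185-32417484 on the plus strand for Bach2, whose start there lies inside the longer GENCODE span given below. Capitals mark E-boxes (CANNTG, the site of E proteins and, in one form, of ZEB proteins) and the TCF/LEF core (CTTTGA), both searched on both strands, so the core can read TCAAAG.
Tcf7: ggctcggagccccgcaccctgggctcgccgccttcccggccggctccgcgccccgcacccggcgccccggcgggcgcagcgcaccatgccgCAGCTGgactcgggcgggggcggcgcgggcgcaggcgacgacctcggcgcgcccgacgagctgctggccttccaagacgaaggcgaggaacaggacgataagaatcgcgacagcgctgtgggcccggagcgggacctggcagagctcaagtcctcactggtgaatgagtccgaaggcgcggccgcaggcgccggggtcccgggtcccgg
Lef1: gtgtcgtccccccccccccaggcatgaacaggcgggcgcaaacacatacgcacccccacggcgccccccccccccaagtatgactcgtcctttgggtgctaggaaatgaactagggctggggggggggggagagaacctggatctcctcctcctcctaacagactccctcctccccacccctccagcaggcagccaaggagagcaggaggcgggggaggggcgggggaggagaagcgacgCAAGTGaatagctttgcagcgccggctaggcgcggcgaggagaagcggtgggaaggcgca
Bach2: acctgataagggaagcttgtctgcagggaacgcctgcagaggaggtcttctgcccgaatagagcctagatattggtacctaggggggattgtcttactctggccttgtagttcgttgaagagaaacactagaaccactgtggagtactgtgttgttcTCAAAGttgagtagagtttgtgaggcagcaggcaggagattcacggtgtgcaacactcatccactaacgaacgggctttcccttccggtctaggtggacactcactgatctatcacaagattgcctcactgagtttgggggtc
The Tcf7 and Lef1 windows each held 1 E-box and 0 TCF/LEF cores, and the Bach2 window held 0 E-boxes and 1 core. In the Tcf7 window the atg just before the E-box opens a reading frame without a stop codon up to the window's end. Much of that window may thus be coding sequence of a longer transcript, with its E-box inside it. Over all 32851 RefSeq promoters of this length, 72.3% held an E-box and 16.0% a core, so these matches are common letters and describe the windows only. Of the 10 members 9 had an entry, and none was found for Tox.

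In the annotation (GRCm38, GENCODE M21) all 10 genes are protein coding. They range from Id3 (chr4:136143497-136145755, plus strand, 2.26 kb) and Id2 (chr12:25093799-25097140, minus strand, 3.34 kb) to Bach2 (chr4:32238804-32586108, plus strand, 347 kb) and Tox (chr4:6686353-6991557, minus strand, 305 kb). Tcf7 lies at chr11:52252371-52283014 on the minus strand and Lef1 at chr3:131110471-131224356 on the plus strand. The other spans are chr2:163203125-163324170 for Tox2 (plus), chr9:118478212-118486132 for Eomes (plus), chr11:97098071-97115331 for Tbx21 (minus) and chr2:44983632-45117395 for Zeb2 (minus). Antisense genes in the files overlap Tcf7, Lef1, Tox, Bach2, Eomes and Zeb2, and whether the counting used strand is not given in the sources used here. Because introns may have been counted too, levels are compared within a gene and never between genes.

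Depth and composition of the libraries were as follows. The WT NOD library held 13859 barcodes and the library labelled NOD.Cxcl16-/- held 10554, of which 10723 and 9323 were kept after removal of barcodes under 500 genes, over 10% mitochondrial counts or called as doublets. Kept cells had a median of 3867 and 4901 unique molecular identifiers (UMIs, counted RNA molecules), and 45 barcode sequences occurred in both libraries. Cxcl16 itself stood at 103 and 102 CPM (counts per 1000000 counts) over all barcodes. The 3′ counts cannot check the genotype unless the deleted part holds the counted end, so differences below are between libraries and the second is called by its label. Insulin and exocrine transcripts (Ins1, Ins2, Prss1, Cpa1 summed) were found in 8.20% of WT NOD CD8 cells and 39.3% in the other library. These shares were not adjusted for depth, and Prss1 and Cpa1 were at 0 UMIs in both. The summed level was 32.8 CPM in WT NOD and 113 in the other library for CD8 cells. It was likewise lower in WT NOD for gamma-delta (17.3 and 98.5) and NK cells (30.6 and 79.0). For CD4 cells (237 and 194) and Tregs (361 and 139) it was higher in WT NOD.

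Cells were assigned by marker UMIs to 5 gates, none of which used a member. The CD8 gate (a Cd3 UMI with Cd8a or Cd8b1, without Cd4, Foxp3 or Trdc) held 2464 WT NOD cells and 1456 labelled NOD.Cxcl16-/-. In the same order, which all paired values below follow, the CD4 gate held 1252 and 1269 cells, the Treg gate (Foxp3) 271 and 407, the gamma-delta gate (Trdc) 278 and 226, and the NK gate (Ncr1, Klrb1c or Klre1 without Cd3) 51 and 36. Cells with 2 or more B-cell or myeloid UMIs were left out. Of the kept cells with a Cd3 UMI, 3984 and 2847 fell in no gate. Among these, 1376 and 1090 held such B-cell or myeloid UMIs, and another 2365 and 1547 held no Cd4, Cd8a or Cd8b1 UMI. Genes outside the gate rules were checked: Gzmk stood at 269 and 222 CPM in the CD8 gate, Cd40lg at 128 and 118 in the CD4 gate, Ikzf2 at 1128 and 1174 in the Treg gate and Cd163l1, a gamma-delta gene, at 153 and 313 in the gamma-delta gate. The NK gate had Tyrobp at 1233 and 1445 CPM and Trac at 7.66 and 22.6 CPM, but also Trdc at 146 and 237 and Trbc2 at 253 and 367 CPM. The gamma-delta gate in turn held NK genes, Ncr1 at 224 and 245 CPM (766 and 762 in the NK gate), Fcer1g at 502 and 670 and Tyrobp at 217 and 323, so these gates were not fully apart. The gamma-delta gate also held Trac at 111 and 96.9 CPM, against 648 and 624 in the CD8 gate, and Trbc2 at 988 and 951. The part of these transcripts' source cells in the gamma-delta levels of Eomes, Id2 and the other members was not tested. Ikzf2 also stood at 230 and 247 CPM in the CD4 gate and at 81.6 and 156 in the CD8 gate. Il2ra stood at 21.2 and 17.4 CPM in the CD4 gate, against 102 and 83.9 in the Treg gate. The CD4 gate rests on the absence of Foxp3 UMIs. The part of Tregs without such a UMI in its levels and pairs was not tested. Levels are UMIs pooled over a gate's cells scaled to 1000000 of all their UMIs (CPM). A B-cell gate and a macrophage gate served as background.

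Tcf7 was highest in CD4 cells, at 248 CPM (95% interval 237 to 260) in WT NOD cells and 266 (255 to 277) in those labelled NOD.Cxcl16-/-. Gamma-delta cells followed at 206 and 184 CPM, CD8 cells at 142 (137 to 149) and 176 (169 to 184), Tregs at 91.9 and 73.9, and NK cells at 80.4 and 79.0. The Treg and NK intervals overlapped in both libraries, as did the gamma-delta and CD8 intervals in the library labelled NOD.Cxcl16-/-. B cells and macrophages had at most 4.35 CPM.

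Lef1 took the same order of gates in both libraries. It stood at 190 (180 to 200) and 153 CPM (145 to 162) in CD4 cells, 140 and 138 in gamma-delta cells, 120 and 128 in CD8 cells, 79.9 and 70.4 in Tregs, and 61.3 and 56.4 in NK cells. Neighbours whose intervals overlapped were gamma-delta with CD8 and Treg with NK, and in the library labelled NOD.Cxcl16-/- also CD4 with gamma-delta. From top to bottom Tcf7 spanned 3.08-fold and 3.60-fold, and Lef1 3.1-fold and 2.71-fold.

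Bach2, which B cells use as well, was at 479 and 397 CPM in the B-cell gate, above every T-cell gate. Among the 5 gates it was highest in gamma-delta cells (193 and 228 CPM), with CD4 cells at 152 and 164, NK cells at 134 and 175, Tregs at 103 and 108, and CD8 cells at 100.3 and 148. Gamma-delta and CD4 intervals did not overlap in either library. CD8 cells came last in the WT NOD library, with an interval that overlapped that of Tregs, and Tregs came last in the other.

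Tox took another order. Tregs led with 656 (618 to 695) and 700 CPM (670 to 730), then CD4 cells with 482 and 549, CD8 cells with 422 (411 to 432) and 495 (483 to 509), gamma-delta cells with 187 and 155 and NK cells with 115 and 175. All neighbours in that order were apart beyond their intervals except NK and gamma-delta cells in the library labelled NOD.Cxcl16-/-, which also changed places. Tox2 was at 75.5 and 82.4 CPM in CD8 cells, 66.4 and 73.9 in CD4 cells and 37.9 and 44.2 in Tregs. Its CD8 and CD4 intervals overlapped in both libraries. Gamma-delta cells held 8 and 4 Tox2 UMIs and NK cells 0 and 1 in all.

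Id2, which NK cells and other innate lymphocytes need, peaked in NK cells at 617 (525 to 720) and 525 CPM (424 to 643). Single cells weighed on this: 54 of the 161 and 32 of the 93 Id2 UMIs came from 1 cell each, and without that cell NK cells had 487 and 403 CPM. It varied less among T cells, from 282 and 271 CPM in CD8 cells and 254 and 268 in gamma-delta cells to 236 and 258 in Tregs and 213 and 211 in CD4 cells. CD8 and gamma-delta intervals overlapped, and so did gamma-delta and Treg intervals. Macrophages had 445 CPM in both libraries. Id3 stayed between 5.64 and 22.1 CPM in all 5 gates, below the 72.2 and 69.9 CPM of B cells, and all neighbouring gates overlapped.

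Eomes, of the members with UMIs in every gate of both libraries, had the widest span between gates, 32.0-fold and 97.9-fold. NK cells had 199 (149 to 261) and 158 CPM (105 to 228), CD8 cells 98.4 and 94.5 and gamma-delta cells 63.6 and 50.5, against 6.22 and 3.93 in CD4 cells and 14.9 and 1.61 in Tregs. Tbx21 was more even: 61.3 and 113 CPM in NK cells, 55.3 and 47.2 in gamma-delta cells, 33.7 and 42.1 in CD8 cells, 30.5 and 33.2 in CD4 cells and 25.3 and 25.8 in Tregs. CD4 and Treg intervals of Tbx21 overlapped in both libraries. In the WT NOD library NK with gamma-delta and CD8 with CD4 intervals overlapped too, and in the other gamma-delta with CD8.

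Zeb2 was highest in macrophages, at 411 and 493 CPM, and B cells held 72.7 and 65.2. CD8 cells had 55.0 and 78.6 CPM, NK cells 42.1 and 95.9, CD4 cells 31.7 and 47.9, gamma-delta cells 25.6 and 24.8, and Tregs 16.7 and 31.6. Every pair of neighbours overlapped in the WT NOD library.

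**Figure D1:**
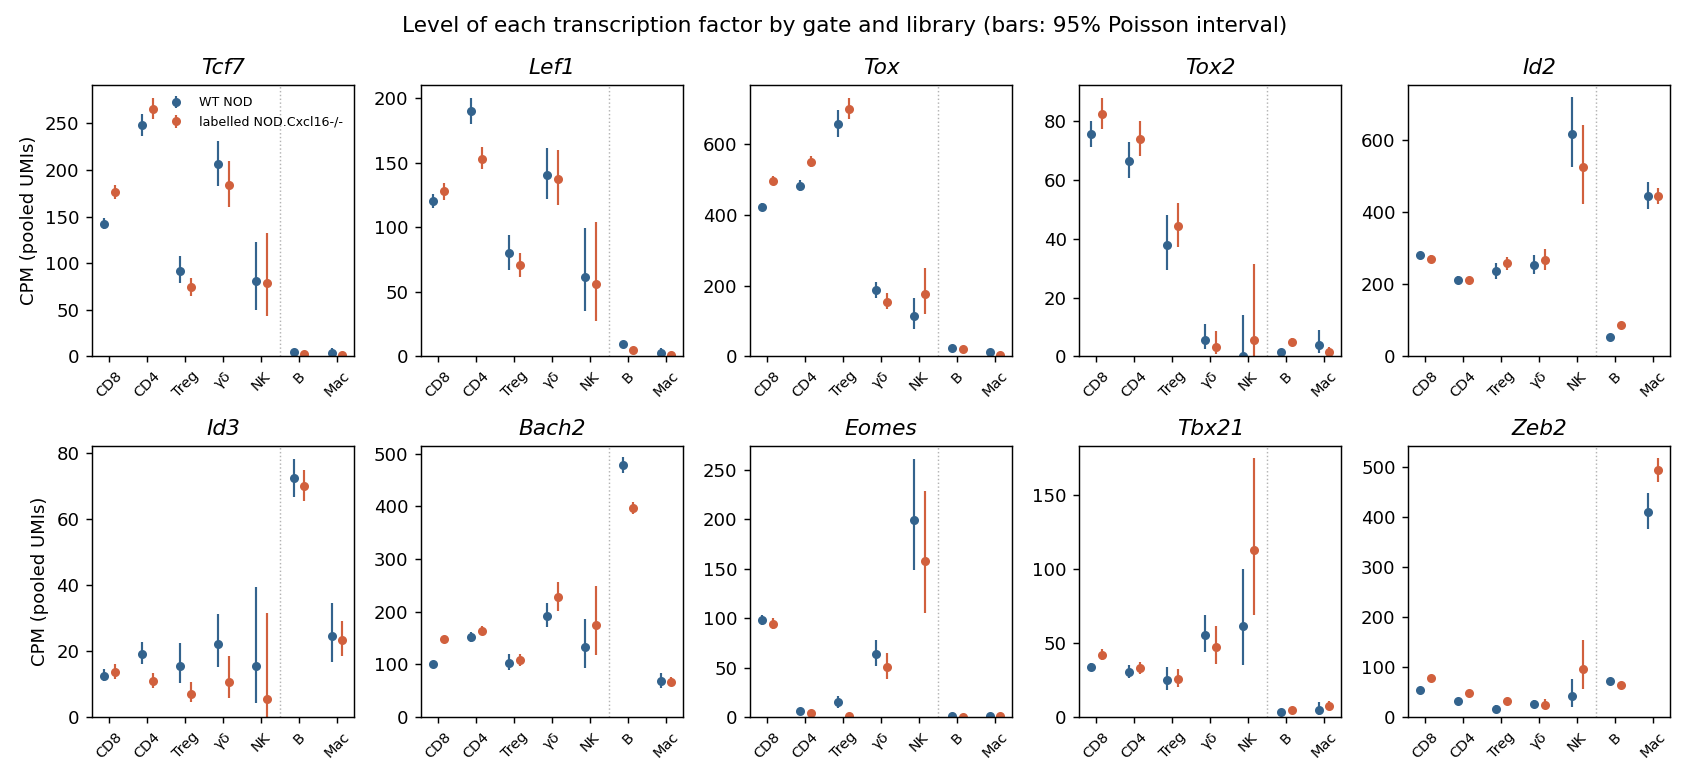
Level of each member in the 5 gates and in the B-cell and macrophage gates used as background, in CPM on a linear axis of its own for each gene, with 1 point per library and bars for the exact 95% interval of the pooled count. Tcf7 was highest in CD4 cells (248 and 266 CPM), Tox in Tregs (656 and 700 CPM) and Eomes in NK cells (199 and 158 CPM).

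To compare cells of different depth, each cell was thinned at random to 2000 UMIs, which left 1928 of 2464 and 1372 of 1456 CD8 cells and set aside 536 and 84 shallower ones. A Tcf7 UMI was then found in 24.95% (23.0% to 26.9%) of WT NOD CD8 cells and in 31.3% (28.9% to 33.9%) of those labelled NOD.Cxcl16-/-, against 0.610% and 0.741% of B cells. Unthinned, Tcf7 was found in 37.3% and 53.0%. The median CD8 cell held 4606 and 5484 UMIs and the median B cell 4471 and 4621. Tox was found in 43.0% and 48.5% of CD8 cells after thinning (57.4% and 70.1% without) and in 2.71% and 2.49% of B cells. The share with Lef1 was 19.0% and 19.2%, with Tox2 12.6% and 12.5%, with Eomes 14.2% and 14.5% and with Tbx21 7.31% and 9.26%, each above the B-cell share, which was at most 2.24%. Id2 was found in 37.4% and 37.0% of CD8 cells and in 8.47% and 10.2% of B cells. Bach2 was found in 19.8% and 26.1% of CD8 cells and in 14.4% and 14.8% of macrophages, its lower background. Id3 was found in 2.65% and 2.55% of CD8 cells and in 2.89% and 3.50% of macrophages, and Zeb2 in 8.92% and 11.2% of CD8 cells and in 10.1% and 10.6% of B cells. Both reference gates held more Id3 per UMI than CD8 cells, and B cells in WT NOD more Zeb2, so for this pair of genes no gate gave a background share. Unthinned shares of the other members in CD8 cells were 31.4% and 36.8% for Lef1, 25.1% and 31.3% for Tox2, 54.8% and 62.7% for Id2, 30.9% and 48.5% for Bach2, 28.7% and 31.7% for Eomes and 15.1% and 22.1% for Tbx21. None of the 10 members was detected in 11.5% and 9.77% of thinned CD8 cells.

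Dividing cells were set apart next. A cell with 3 or more UMIs of 15 cell-cycle genes was called cycling, which took 631 WT NOD CD8 cells (25.6%) and 269 (18.5%) of those labelled NOD.Cxcl16-/-. Cycling CD8 cells were deeper, with medians of 7866 and 15022 UMIs against 4328 and 5042 in non-cycling cells, and beside the threshold 172 and 118 CD8 cells held 2 such UMIs and 81 and 39 held 3.

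In cycling CD8 cells Tcf7, Lef1 and Bach2 were lower in both libraries. Tcf7 stood at 62.1 in cycling against 210 CPM in non-cycling WT NOD cells and at 93.7 against 235 in the other library, log2 differences of -1.74 (-1.91 to -1.61) and -1.32 (-1.48 to -1.17). Lef1 stood at 42.9 against 185 and at 46.3 against 186 CPM, differences of -2.09 and -1.98. Bach2 stood at 27.7 against 161 and at 54.0 against 214 CPM, differences of -2.50 and -1.97. Since B cells had the most Bach2, it was also read in CD8 cells without any B-cell or myeloid UMI, where its difference was -2.51 and -1.83. Log2 differences are of CPM + 1, so those of low genes are understated.

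The other members differed less. Tox was at -0.24 and -0.19 on the log2 scale, Tox2 at 0.03 and 0.13, Id2 at -0.35 and -0.31, Eomes at 0.19 and 0.35, Zeb2 at -0.42 and -0.45 and Tbx21 at -0.55 and -0.96. Id3 moved in WT NOD cells only (-1.54, 40 against 154 UMIs) and stood at -0.10 in the other. Counting a gene as changed where it differed by more than 1.5-fold the same way in both libraries, 3 of 10 members were lower and 0 higher, and of 7638 genes tested (10 CPM or more on a side and 20 UMIs or more) 12.9% were lower and 15.3% higher. Tbx21 in the WT NOD library lay just inside the threshold of 0.58 on the log2 scale, and it joined the lower members among cells without a single B-cell or myeloid UMI (-0.59 and -0.95). After thinning, Tcf7 was found in 11.2% of cycling and 29.9% of non-cycling WT NOD CD8 cells, and in 16.3% and 34.9% of those of the other library. Tox was found in 42.9% and 43.0%, and in 54.0% and 47.2%.

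In CD4 cells, of which 122 (9.74%) and 124 (9.77%) were cycling, Lef1 was lower by 1.67 and 2.11 on the log2 scale, from 236 to 73.6 and from 197 to 44.7 CPM. Bach2 was at 64.7 against 187 and at 70.5 against 202 CPM (-1.52 and -1.50), and Tox at 335 against 540 and at 384 against 615 CPM (-0.69 and -0.68). These 3 members were lower in both libraries and 0 were higher, beside 17.2% of all genes tested lower and 12.9% higher. Tcf7 was at -0.65 and -0.53 in CD4 cells, the second value inside the threshold, and Id2 at -0.56 and -1.02, the first inside it.

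Tregs had 33 and 63 cycling cells. Bach2 was at 55.3 against 126 and at 54.6 against 146 CPM in them (-1.18 and -1.40), Id2 at 146 against 279 and at 177 against 316 CPM (-0.93 and -0.83), and Tbx21 at 10.7 against 32.2 and at 9.36 against 37.4 CPM (-1.51 and -1.89) on only 6 and 12 UMIs in the cycling cells. With cells counted as cycling from 2 UMIs the WT NOD value for Tbx21 was 0.055, which ends its call. Tcf7 in Tregs was not called lower in cycling cells. It stood at 127 against 75.5 CPM in WT NOD Tregs and at 74.1 against 73.8 CPM in those of the other library. Without the cell with the most UMIs on each side, it stood at 96.0 against 70.0 and at 58.2 against 68.35 CPM. The count for Tregs was 3 members lower and 0 higher, beside 14.8% and 9.85% of all genes. Bach2 was the member called lower in all 3 gates. Gamma-delta cells (7 and 4 cycling) and NK cells (3 and 0) were too few to divide.

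**Figure D2:**
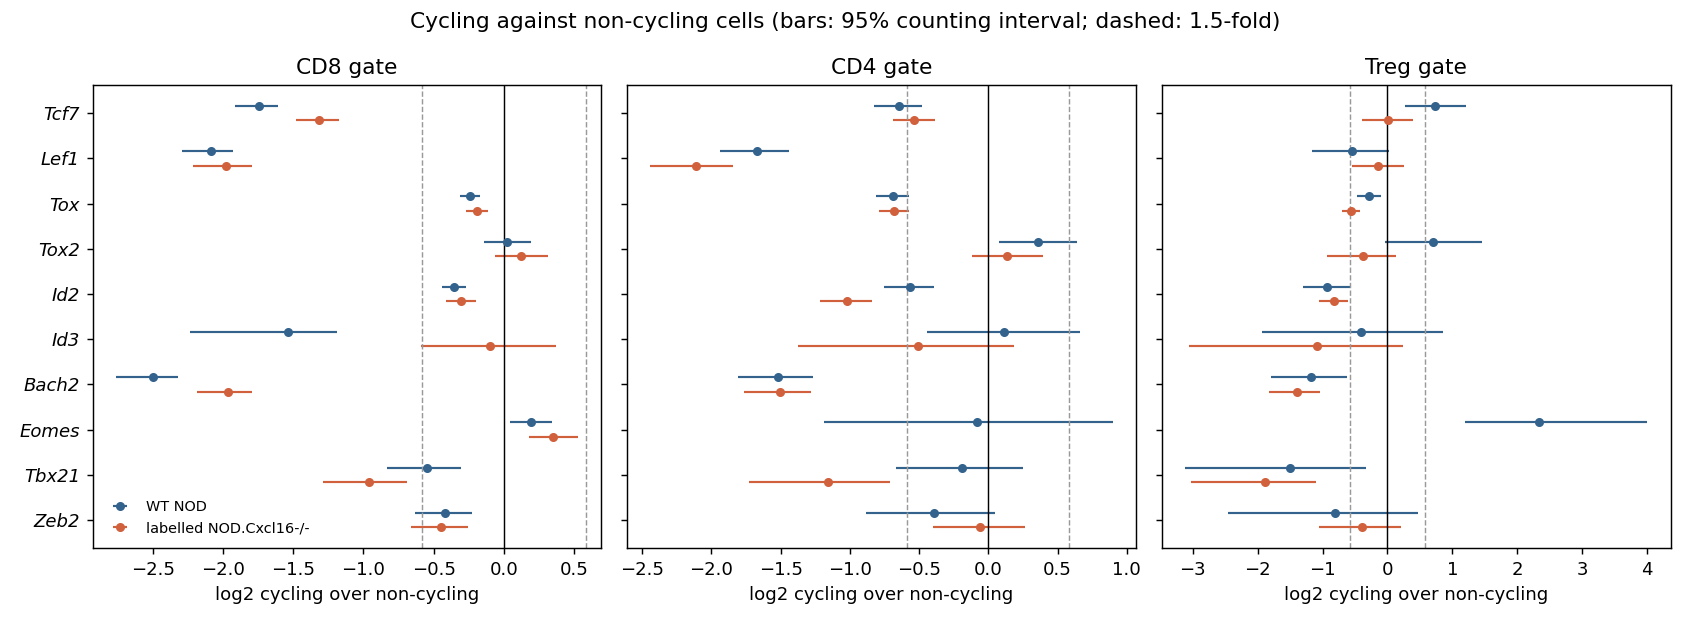
Log2 difference in level (CPM + 1) of each member between cycling and non-cycling cells of the CD8, CD4 and Treg gates, 1 point per library, with bars for counting intervals and dashed lines at 1.5-fold. In CD8 cells Tcf7 (-1.74 and -1.32), Lef1 (-2.09 and -1.98) and Bach2 (-2.50 and -1.97) lay below the lower line in both libraries.

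The lists of linked genes, 14 genes each, were read beside the members. Of the stem-like and naive-linked list, 13 genes could be tested in CD8 cells, and 10 were lower and 1 higher in cycling cells of both libraries, with list medians of -1.25 and -1.20 against -0.04 and -0.04 for all genes. Il7r, the interleukin-7 receptor, was at -3.23 and -3.32, and Dapl1 at -2.89 and -2.31. The gene that was higher was Myb, a transcription factor of self-renewing cells, at 0.84 and 0.77. Of 12 effector-linked genes 2 were lower and 0 higher, a share near the 12.9% of all genes that were lower, with medians of -0.10 and -0.32. They were Ccl5 (-1.45 and -1.56) and Il12rb2 (-1.34 and -1.90), while Ccl4 was at -0.88 and -0.52. Of 14 inhibitory receptor and chronic-stimulation genes 4 were lower, among them Nr4a3 (-1.29 and -1.12) and Lag3 (-0.90 and -1.07), and 1 was higher, Entpd1, which encodes the ectonucleotidase CD39 (0.69 and 0.75). The medians of that list were -0.29 and -0.49. Of 11 E proteins and partners 4 were lower and 0 higher. They were the E protein Tcf12 (-1.19 and -0.85), the corepressor Tle4 (-1.16 and -1.10), Mafk, the small Maf partner of BACH2 (-1.05 and -1.12), and Zeb1, the relative of Zeb2 (-1.14 and -1.03), with list medians of -0.76 and -0.46.

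Co-detection was read in thinned cells: for each of 45 pairs, the share of cells with the second member was compared between cells with and without the first, and a pair was called where the 2 intervals did not overlap, the same way, in both libraries. In CD8 cells 10 pairs were found together more often, 6 less often, and 22 overlapped in both libraries. No share of called pairs among other genes is at hand to set beside these counts. Neither they nor the counts below are therefore shown to be particular to the members. The pairs found together formed 2 groups. One was Tcf7, Lef1 and Bach2, all 3 of its pairs. The other was Tox with Tox2, Eomes and Zeb2, Tox2 with Eomes and Zeb2, Eomes with Zeb2, and Tbx21 with Zeb2.

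In the first group, Lef1 was found in 29.1% of WT NOD CD8 cells with a Tcf7 UMI (140 of 481) and in 15.6% of those without, and in 28.8% and 14.8% in the library labelled NOD.Cxcl16-/-. Bach2 was found in 28.9% of cells with Tcf7 and 16.8% of those without, and in 34.2% and 22.4%. Among cells with Lef1, Bach2 was found in 37.7% against 15.6%, and in 44.5% against 21.7%.

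In the second, Tox2 was found in 18.5% of WT NOD CD8 cells with a Tox UMI and in 8.19% of those without, and in 17.3% and 7.93% in the other library. Eomes was found in 19.5% against 10.2% of cells with and without Tox, and in 19.97% against 9.35%. Zeb2 was found in 17.7% of cells with Tbx21 and 8.23% of those without, and in 21.3% and 10.2%. Tbx21 and Eomes were not called in either direction: Tbx21 was found in 7.30% of CD8 cells with Eomes and 7.32% without, and in 8.54% and 9.38%.

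Of the 6 pairs found less often, 5 involved Lef1, with Tox, Tox2, Id2, Tbx21 and Zeb2, and the sixth was Tcf7 with Id2. Tox was found in 29.5% of WT NOD CD8 cells with a Lef1 UMI and 46.2% of those without, and in 33.1% and 52.2% in the other library. Id2 was found in 28.7% of cells with Tcf7 against 40.3% without, and in 31.2% against 39.6%. Tcf7 and Tox did not separate this way: Tox was found in 41.2% of cells with Tcf7 and 43.6% of those without, and in 45.8% and 49.8%, and the intervals overlapped in both libraries. Cells with both a Tcf7 and a Tox UMI made up 10.3% and 14.4% of CD8 cells.

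Since cycling cells were lower in Tcf7, Lef1 and Bach2, the pairs were also read in non-cycling CD8 cells alone. There 9 pairs were found together and 7 less often, and 9 and 6 of these were also called over all CD8 cells. Eomes with Zeb2 was no longer called, and Id2 with Bach2 was added to those found less often. In CD4 cells 4 pairs were found together, the 3 of Tcf7, Lef1 and Bach2 and the pair of Tox and Tox2, and 3 less often, Lef1 with Tox, Tox2 and Id2. Tox was found in 36.2% of WT NOD CD4 cells with Lef1 and 52.2% of those without, and in 32.5% and 58.5% of those labelled NOD.Cxcl16-/-. Treg and gamma-delta cells gave 0 called pairs, with 13 and 12 pairs resting on fewer than 20 cells by their first member. In NK cells all 45 pairs did. The minimum was not asked of the second member, so further pairs also rested on few cells. One was Tcf7 with Eomes in Tregs, where Eomes was found in 7 and 3 cells before thinning. The 0 called pairs there thus do not show that the members were unlinked.

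**Figure D3:**
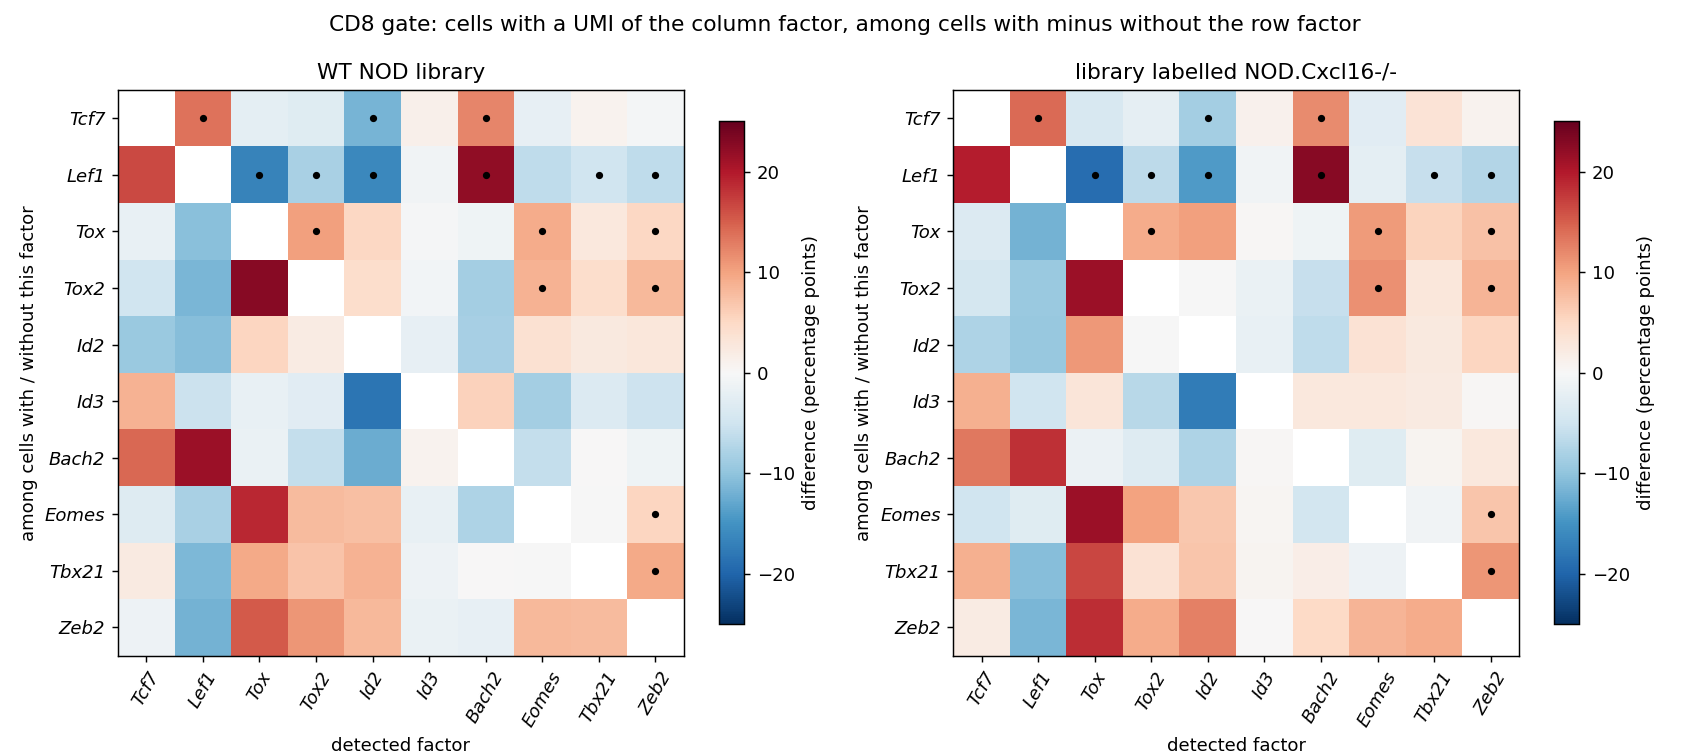
Percentage of thinned CD8 cells with the column member, in cells with a UMI of the row member minus that in cells without, as percentage points on a colour scale, 1 panel per library, with dots on the pairs called in both libraries. Tcf7, Lef1 and Bach2 form a block of positive differences (Lef1 29.1% against 15.6% by Tcf7), and Lef1 with Tox is negative (29.5% against 46.2%).

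Non-cycling CD8 cells were then divided by whether a Tcf7 UMI was found after thinning, into 424 and 387 cells with and 996 and 722 without, and all UMIs of each set were pooled. Cells counted as without still held Tcf7 at 96.6 and 117 CPM in all their UMIs, against 492 and 463. Median depths were alike, 5135 and 5150 UMIs with Tcf7 and 4938 and 5251 without. Lef1 was at 274 against 152 CPM in WT NOD cells and at 247 against 151 in the other library (log2 0.85 and 0.71), and was the member that passed 1.5-fold upward in both. Bach2 was at 0.67 and 0.56, the second value inside the threshold. Id2 was at 211 against 361 and at 224 against 336 CPM, -0.77 and -0.58, again with the second value inside it.

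Tox was close to even between cells with and without Tcf7, at 427 against 479 and at 515 against 519 CPM (-0.17 and -0.01), and Eomes stood at 0.01 and -0.19. Tox2, Tbx21 and Zeb2 differed in sign between the libraries, at -0.38 and 0.17, -0.21 and 0.09, and -0.42 and 0.08. Id3 was at 0.62 and 0.34. Thus 1 of the other 9 members was higher and 0 were lower, beside 0.896% of 7364 genes tested higher and 1.26% lower in both libraries.

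Of 12 effector-linked genes tested, 6 were lower and 0 higher in cells with Tcf7: Gzmb, Prdm1, Gzma, Ccl4, Ccl5 and Nkg7. Gzmb, which encodes the killing protease granzyme B, was at 10.4 against 155 CPM and at 28.4 against 168 CPM (-3.77 and -2.53), Prdm1, which encodes BLIMP1, at -2.52 and -1.43, and Gzma at -2.11 and -1.22. Of 14 inhibitory receptor and chronic-stimulation genes 4 were lower: Entpd1 (-3.25 and -2.51), Havcr2, which encodes TIM-3 (-2.38 and -3.05), Pdcd1, which encodes PD-1 (-1.18 and -0.59), and Lag3. Of 14 stem-like and naive-linked genes 2 were higher, Il7r (0.86 and 0.69) and Cxcr5 (0.89 and 0.60). Cxcr5 was low, at 15.45 against 7.90 and at 12.9 against 8.18 CPM. Myb stood at 1.33 and 0.55, the second value inside the threshold, and Xcl1 went the other way, at -0.535 and -0.102. Of 11 E proteins and partners 1 was higher, Mafk (0.63 and 0.65), and 0 were lower. Medians of the lists were -0.98 and -0.64 for effector-linked, -0.76 and -0.11 for inhibitory, 0.70 and 0.39 for stem-like genes and 0.19 and 0.08 for E proteins and partners, against -0.01 and 0.01 for all genes. Over all CD8 cells, 11.9% and 10.0% of those with Tcf7 were cycling, against 31.2% and 23.4% of those without.

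**Figure D4:**
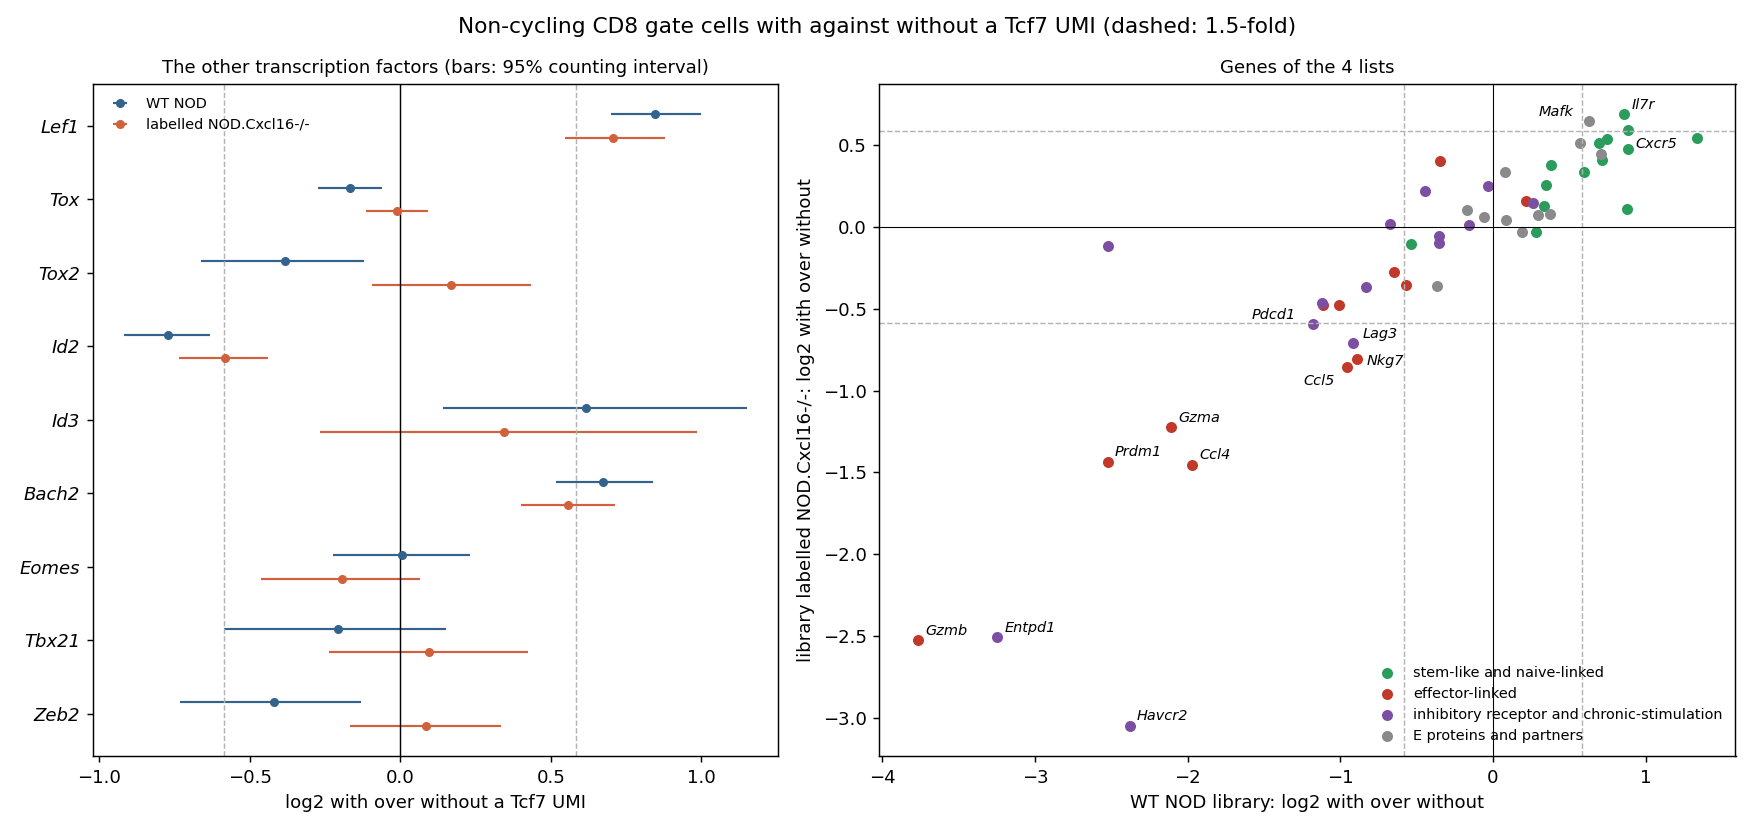
Log2 difference in level (CPM + 1) between non-cycling CD8 cells with and without a Tcf7 UMI, for the other members (left, 1 point per library with counting intervals) and for the genes of the 4 lists (right, WT NOD on the horizontal and the library labelled NOD.Cxcl16-/- on the vertical axis), with dashed lines at 1.5-fold. Lef1 lies above the upper line in both libraries (0.85 and 0.71) and Gzmb far below the lower one (-3.77 and -2.53).

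Between the libraries, no member passed 1.5-fold over all CD8 cells, and 3 were higher in cycling CD8 cells. Bach2 came closest, at 100.3 CPM in WT NOD cells and 148 in those labelled NOD.Cxcl16-/-. Its log2 ratio was 0.55 (0.46 to 0.66), and 0.41 in non-cycling cells. Zeb2 followed at 0.51 (0.38 to 0.65), Tbx21 at 0.32, Tcf7 at 0.31 and Tox at 0.23, while Lef1, Tox2, Id2, Id3 and Eomes lay between -0.06 and 0.12. Of 7624 genes tested in CD8 cells 1.38% were higher and 0.853% lower. The share of cycling cells, 25.6% and 18.5%, differed between the libraries beside these ratios, and by state the Tcf7 ratio was 0.16 in non-cycling and 0.59 (0.40 to 0.79) in cycling cells.

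In cycling CD8 cells Bach2 stood at 27.7 and 54.0 CPM (195 and 254 UMIs), a ratio of 0.94 (0.69 to 1.24). Id3 there had 40 and 62 UMIs (5.68 and 13.2 CPM, 1.09), of which 3 and 10 came from 1 cell each. Without that cell Id3 stood at 5.26 and 11.1 CPM, still past the threshold. Tcf7 lay just past the threshold. Of the 437 and 441 Tcf7 UMIs, 16 and 27 came from 1 cell each. Without that cell Tcf7 stood at 60.2 and 88.5 CPM, which is inside the threshold. The 3 members called higher, with 0 lower, stood beside 2.64% of genes higher and 1.36% lower in cycling CD8 cells. In cycling CD4 cells Lef1 (-0.71), Id3 (-1.21) and Tbx21 (-0.66) were lower and Zeb2 (0.83) higher, beside 3.99% of genes lower and 6.21% higher. In the WT NOD library 8 of the 56 Tbx21 UMIs and 11 of the 41 Id3 UMIs came from 1 cell each. Without the cell with the most UMIs in each library, Tbx21 stood at 23.95 and 16.1 CPM, inside the threshold. Id3 then stood at 15.1 and 7.50 CPM, still past it. In cycling Tregs Tcf7 (-0.76) was lower and Zeb2 (1.23, 6 and 34 UMIs) higher, beside 8.52% and 10.6%. Of the 71 and 95 Tcf7 UMIs there, 20 and 24 came from 1 cell each. Without that cell Tcf7 stood at 96.0 and 58.2 CPM, still past the threshold. For Zeb2, 3 of the 6 WT NOD UMIs came from 1 cell. Cycling cells of these gates were few, 33 to 631 a library.

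In CD4 cells Id3 was lower, at 19.1 CPM (135 UMIs in 93 cells) against 10.9 CPM (89 UMIs in 80 cells). The log2 ratio was -0.75 (-1.21 to -0.41), but 11 of the 135 UMIs came from 1 cell, and the ratio was -0.27 when the CPM values of single cells were averaged. Zeb2 in CD4 cells lay just inside the threshold at 0.58, and Lef1 was at -0.31. Of 7799 genes tested, 1.24% were higher and 1.58% lower.

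In Tregs Zeb2 was higher, 29 UMIs in 21 of 271 cells (16.7 CPM) against 98 UMIs in 45 of 407 cells (31.6 CPM), a ratio of 0.89 (0.31 to 1.58). It fell inside the threshold when doublets were kept (0.45) or when 2 Foxp3 UMIs were asked for (0.39). Since Zeb2 was highest in macrophages, myeloid markers (Lyz2, Csf1r, Cd68 and Adgre1 summed) were set beside it: they stood at 14.4 and 11.6 CPM in Tregs, 14.7 and 15.2 in CD8 cells and 13.6 and 14.9 in CD4 cells, with Csf1r at 0 in WT NOD Tregs and Adgre1 at 0 in Tregs and CD8 cells of the other library. In cells without any B-cell or myeloid UMI the Zeb2 ratio was 0.77 in Tregs, 0.53 in CD8 cells and 0.58 in CD4 cells. Eomes in Tregs went from 26 UMIs in 7 cells to 5 UMIs in 3 cells (-2.61), and 14 of the 26 came from 1 cell, so a few cells carried it. Id3 in Tregs went from 27 to 22 UMIs (15.5 to 7.10 CPM, -1.03). Beside these, 4.54% of all genes tested in Tregs were higher and 4.26% lower.

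Gamma-delta cells had Id3 at 22.1 and 10.8 CPM (32 UMIs in 28 cells and 13 in 8 cells), a ratio of -0.97 (-2.09 to -0.07), beside 9.81% of genes higher and 6.05% lower. In NK cells Zeb2 (1.17, 0.01 to 2.43), Tbx21 (0.87, -0.14 to 1.93) and Tox (0.60, -0.17 to 1.38) were past 1.5-fold upward on 11 to 31 UMIs, where 12.9% of genes were higher and 12.9% lower. Without the 3 cycling WT NOD cells Tox was at 0.25 and no longer called, Zeb2 at 0.95 and Tbx21 at 0.61. Over all cells of the gates, 4 pairs of gate and member were higher and 4 lower, 3 of the lower ones being Id3. Of these 8 pairs, 7 lay in the Treg, gamma-delta and NK gates, where at least 4.26% of all genes passed 1.5-fold in either direction, 1 in CD4 cells and none in CD8 cells.

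**Figure D5:**
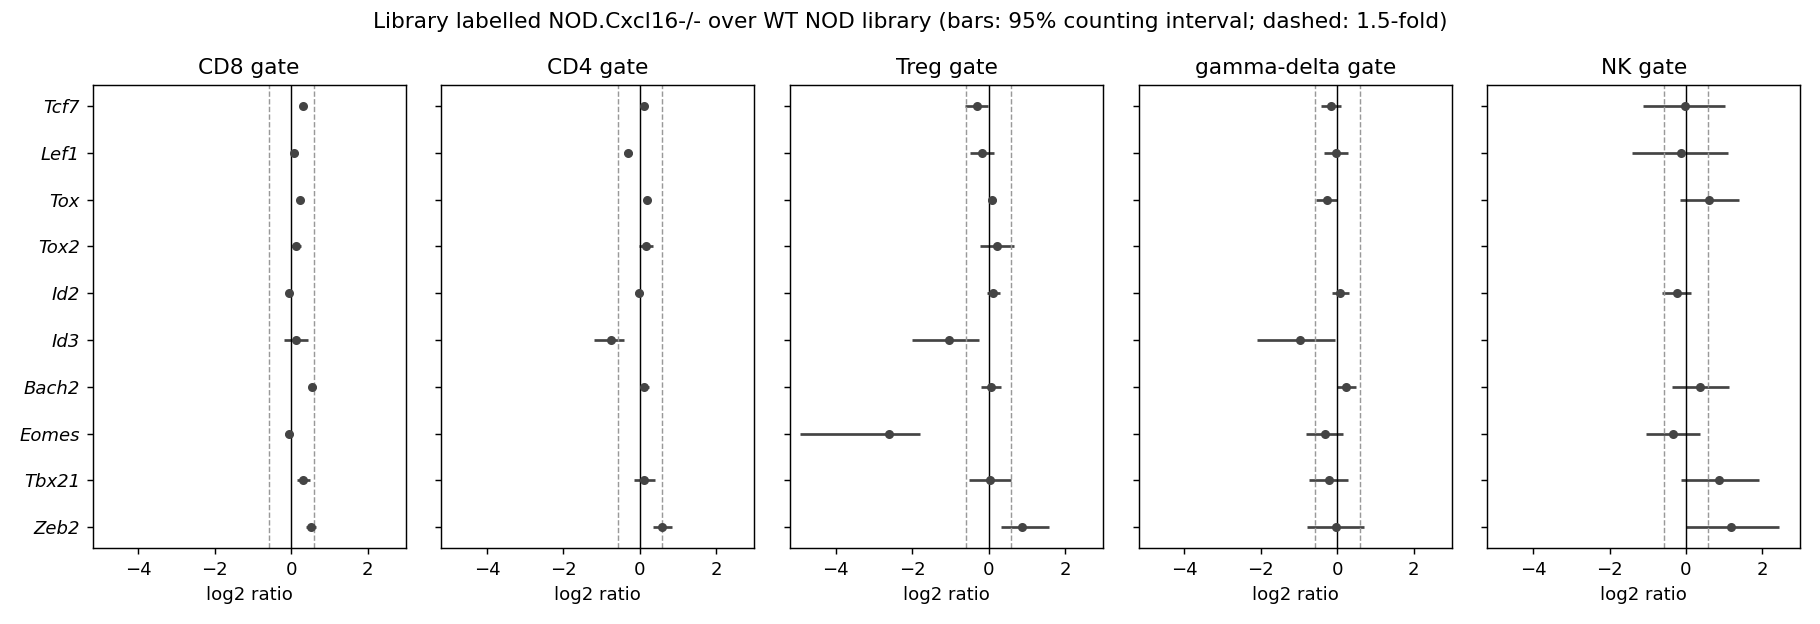
Log2 ratio of each member's level (CPM + 1), library labelled NOD.Cxcl16-/- over WT NOD library, in the 5 gates, with counting intervals and dashed lines at 1.5-fold. No member over all CD8 cells passes a line (Bach2 0.55), and intervals widen in the small gates (Zeb2 in NK cells 0.01 to 2.43); members under the minimum count have no point.

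The genes whose levels ran most like each member's were sought over 13 points, each a gate in 1 state and library with 50 cells or more, among 7142 genes. The points share libraries, depth and cell states and hold no NK cells, so Pearson's r is a description. Tcf7 was closest to A630014C17Rik (0.96), which lies antisense to it, Rgcc (0.93) and Nsg2 (0.92). Bach2 was closest to Foxp1, a factor of resting lymphocytes (0.98), Patj (0.97) and Otud1 (0.96), and Tox to Syt11 (0.97), Ctla4 and Cd6 (0.95 each). Eomes was closest to Plek and to Klrc1 and Klrc2, genes of NKG2 receptors (0.97 each). Lef1 reached 0.93 with Pi4kb, Igfbp4 and Prkcq, and Tox2 0.96 with Gdi2, Id2 0.94 with Gm20559, Tbx21 0.91 with Itgal, Zeb2 0.87 with Unc119b and Id3 0.85 with Pdrg1.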

How the data were processed

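Gene counts per barcode (UMI counts, 32285 genes) were deposited by the authors for 2 libraries, and Cell Ranger 7.0.1 and build mm10 are named per the submitters' processing notes. Counting of introns, strand and the annotation are not given in the sources used here. The 10 genes, gate markers and linked gene lists were chosen with earlier results of these data known, and lists name the 3 genes with the largest difference that moved the same way in both libraries. Some list values are not reported here.

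Barcodes with 500 genes or more and at most 10% mitochondrial counts were kept. Doublets were removed by a nearest-neighbour score against simulated doublets at 0.8% per 1000 barcodes (1537 and 891 barcodes). Levels are pooled counts scaled to 1000000 (CPM) with exact Poisson intervals, differences are log2 of CPM + 1 with conditional binomial intervals, and shares have Clopper-Pearson intervals. A difference past 1.5-fold was called. UMIs stand for molecules, but intervals leave out differences between animals. The calls were tested on simulated data, with settings and outcome not reported here. Gate settings, filters, doublets, scaling, pseudocount, cycling threshold and thinning were varied. Python 3.11.15, numpy 2.4.6, scipy 1.17.1, pandas 2.3.3, scikit-learn 1.9.0 and matplotlib 3.10.9 were used.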

Additional observations from a re-analysis of the deposited data

How the results depend on the processing

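The count of members lower in cycling CD8 cells of both libraries was 3 or 4 under every alternative run, and the count of gate and member pairs higher in the library labelled NOD.Cxcl16-/- was 3 to 5. The count of lower pairs was 2 rather than 4 when each cell's CPM was averaged, and 3 to 5 otherwise. In WT NOD Tregs, Tbx21 between cycling and non-cycling cells turned from -1.51 to 0.055 when 2 cell-cycle UMIs sufficed, and Zeb2 turned from -0.81 to 0.10 with doublets kept; the cause was not tested. Shares of cells with a UMI follow depth, and 76 of 100 member shares left their interval at 1000 UMIs and 77 without thinning. The alternatives chosen after seeing the data were non-cycling cells only, an NK gate that allows 2 Cd3 UMIs, and cells without B-cell or myeloid UMIs. No paired analysis was possible because each group is 1 library. The number of cells limits the NK, gamma-delta and Treg gates, and low counts limit every Id3 value.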
